A study of Mus musculus with 46 samples.

Results

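The AP-1 family members Fos, Fosb, Fosl1, Fosl2, Jun, Junb, Jund, Atf3, Batf3 and Maff were followed by name through the RNA count table, in which they make up 10 of 31854 genes, and through the open chromatin regions within 100 kb of their start sites, which make up 203 of 123721 peaks. RNA was obtained by translating ribosome affinity purification (TRAP), which pulls down tagged ribosomes with the messages they carry, from the arcuate nucleus of male NuTRAP mice on a C57BL/6J background. In NuTRAP AgRP mice the ribosome and nuclear tags are switched on by AgRP-IRES-Cre, and in NuTRAP POMC mice by POMC-IRES-Cre, so any cell that has ever expressed the Cre carries the tags. The AgRP mice were 6 to 11 weeks old, each TRAP library pooled the arcuate nuclei of 4 mice, and fed mice had free access to chow and received PBS, fasted mice went without food for 18 to 20 h and received PBS, and leptin mice were fasted likewise and received leptin at 5 mg/kg into the peritoneum, all 3 h before tissue was taken. The AgRP data comprise 3 fed (replicates 1, 3 and 4), 4 fasted and 4 leptin libraries, and the POMC data 2 libraries of each state with the same diet and treatment labels, for which age and dose are not given in the sources used here. The p-values measure the spread between these pooled samples. ATAC-seq, which reads where a transposase can cut chromatin, was run on sorted GFP-positive nuclei of AgRP mice in the 3 states (2 libraries each, 4 mice pooled in each) and, in a separate table, on GFP-positive and GFP-negative nuclei sorted from the same pools of fed, untreated AgRP mice (2 libraries each).

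AP-1 is a dimer of basic leucine zipper proteins, in which a Jun protein pairs with a Fos protein, another Jun or a relative such as ATF3, and which binds the site TGACTCA. Fos, Fosb, Junb and Atf3 are immediate early or stress genes whose messages rise within minutes of calcium, MAP kinase or cytokine signals, and Fos is widely read as a mark of recent firing in neurons. ATF3 can repress, JUND is made at a steady rate in most cells, BATF3 is best known in dendritic cells, and MAFF, a small Maf protein with no activation domain, pairs with Fos or with NRF2-type factors. AgRP neurons drive feeding and are active in the fasted state, whereas POMC neurons restrain it, and both carry the leptin receptor.

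RNA libraries held 25581041 to 54511107 counts on genes (17 libraries). Levels are given as CPM, counts scaled to a common library total, and further scaled over these 17 libraries by trimmed mean of M values (TMM), and log2 fold changes come from edgeR's quasi-likelihood test with p-values adjusted by the Benjamini-Hochberg method over every gene tested. Calls required an adjusted p under 0.05 together with a log2 fold change beyond 0.5 in either direction. Of the 10 members, 9 passed the filter of a mean over 1 CPM that left 13401 genes in the AgRP libraries. Batf3 did not, with 0 to 9 counts in each library, and is described by level alone. Because TRAP pools cells, a message that is present in fewer cells and one that is lower in every cell cannot be told apart.

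The neuropeptide of each line was abundant in its own libraries. Agrp lay between 313 and 2136 CPM in the AgRP libraries and between 5.88 and 27.4 CPM in the POMC libraries, and Pomc lay between 17.4 and 44.1 CPM in the AgRP and between 1128 and 2067 CPM in the POMC libraries. The summed level of the 5 AgRP neuron markers Agrp, Npy, Corin, Otp and Ghsr was 1034 to 1678 CPM in fed, 2106 to 5529 CPM in fasted and 1439 to 5708 CPM in leptin libraries, with Npy the most abundant, and its part in the results below was not tested. Without the replicate number as a block, none of the 5 was called in fasted against fed or leptin against fasted. All 5 had an unadjusted p under 0.05 and higher values in the former (median log2 fold change 0.66). In leptin against fed, Agrp alone of the 5 was called, and it was higher (log2 fold change 1.69, adjusted p = 0.0495). In that comparison 3.73% of all genes were called higher. In replicates 1, 3 and 4, Agrp was at 313, 506 and 334 CPM in fed and 727, 1987 and 1171 CPM in fasted libraries. Npy was at 368, 790 and 646 CPM and at 870, 2971 and 2093 CPM. Messages of other cell types were measured too. Slc1a2, the astrocyte glutamate transporter, stood at 20180 to 25888 CPM in replicate 4 of each AgRP state against 2381 to 3850 CPM in the other 8 AgRP libraries, and at 23326 to 26972 CPM in replicate 2 of each POMC state against 5217 to 6204 CPM in the other 3. The other 6 astrocyte markers summed to 868 to 916 CPM in AgRP replicate 4 and 417 to 649 CPM in the rest, and to 1037 to 1173 CPM and 655 to 760 CPM in the POMC libraries. These libraries therefore stood apart in every state, and counts are also given without them.

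Per kilobase of the row length in the table, the family spanned a wide range of levels in fed AgRP neurons. Jund was at 57.1 ± 10.7 CPM per kilobase (SD, n = 3), Junb at 49.2 ± 3.45, Jun at 20.8 ± 2.65, Fosl2 at 19.7 ± 1.44 and Fos at 8.26 ± 2.25. Below these came Fosl1 at 4.74 ± 0.379 CPM per kilobase, Fosb at 2.94 ± 1.20, Atf3 at 2.35 ± 0.489, Maff at 1.87 ± 0.103 and Batf3 at 0.0355 ± 0.0333. Libraries of neighbours overlapped for Jund and Junb, for Jun and Fosl2, for Fosb and Atf3 and for Atf3 and Maff. After leptin, Jun reached 42.2 ± 7.00 and Atf3 20.5 ± 6.60 CPM per kilobase (n = 4), which moved Atf3 from the eighth place to the fourth by mean. The leptin libraries of Atf3 (11.6 to 25.6) overlapped those of Fosl2 (16.2 to 20.5) and Fos (12.3 to 14.8). The row lengths bear on this order: the Junb row is 3948 bases long against 1840 bases of exon in RefSeq, and on the RefSeq length Junb would stand at 106 CPM per kilobase in fed libraries. The Fosl1 row is 6106 bases long, which equals the RefSeq exons of Fosl1 (1705 bases) and of the overlapping gene Ccdc85b on the other strand (4401 bases), and Ccdc85b has no row of its own, so reads of the pair cannot be told apart. Jun and Jund also overlap antisense genes without rows (Junos and Gm11175), and the library kit does not mark strand.

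**Figure D1:**
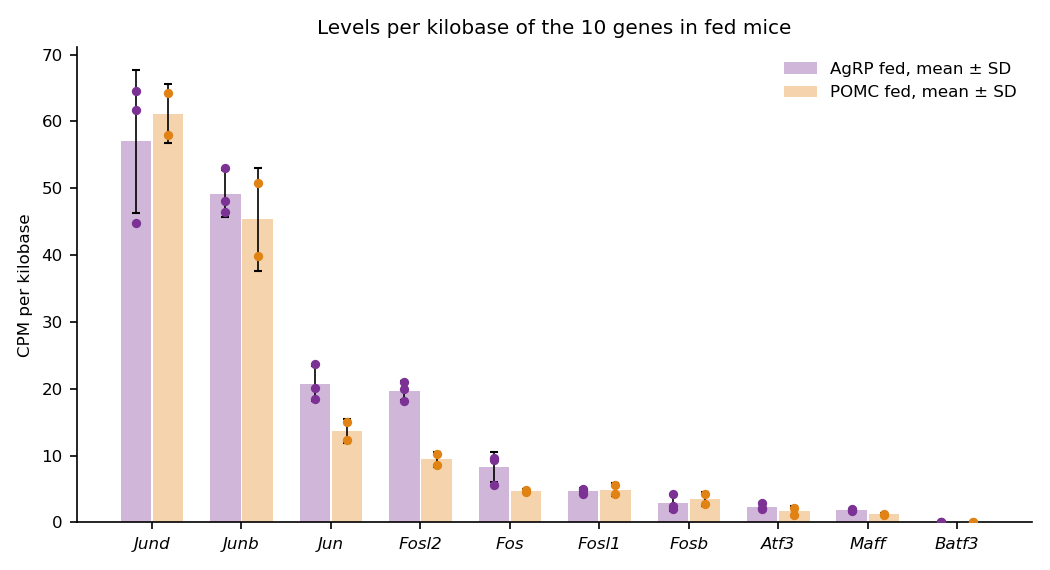
TMM-scaled CPM per kilobase of row length (y axis) of the 10 genes in fed AgRP (purple, 3 libraries) and fed POMC (orange, 2 libraries) TRAP RNA, with bars for means, lines for SD and points for libraries. Jund and Junb stood highest in both lines and Batf3 lay near 0, while Fosl2 was higher in AgRP (19.7) than in POMC libraries (9.42).

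The promoters of Fos, Atf3, Jun and Maff are shown because they carry letters that CREB and AP-1 factors read, and that of Fosb because it holds none of those searched. RefSeq (GRCm38.p6) gives a promoter for 9 of the 10 members, Fosl1 having no entry, and each stretch below is the 250 bases before the start, on the strand of the gene, with matches in capitals where there are any.

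Fos, chr12:85473640-85473889, plus strand: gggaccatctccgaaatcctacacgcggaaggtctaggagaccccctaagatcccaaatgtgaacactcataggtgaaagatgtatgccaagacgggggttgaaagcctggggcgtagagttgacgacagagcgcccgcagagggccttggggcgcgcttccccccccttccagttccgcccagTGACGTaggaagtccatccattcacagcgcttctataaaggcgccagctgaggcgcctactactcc
Atf3, chr1:191183334-191183583, minus strand: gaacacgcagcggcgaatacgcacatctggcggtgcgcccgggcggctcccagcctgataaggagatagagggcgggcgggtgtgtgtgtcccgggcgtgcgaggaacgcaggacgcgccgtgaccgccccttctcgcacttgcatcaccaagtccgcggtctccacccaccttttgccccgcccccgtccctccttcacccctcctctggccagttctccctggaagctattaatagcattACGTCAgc
Jun, chr4:95052223-95052472, minus strand: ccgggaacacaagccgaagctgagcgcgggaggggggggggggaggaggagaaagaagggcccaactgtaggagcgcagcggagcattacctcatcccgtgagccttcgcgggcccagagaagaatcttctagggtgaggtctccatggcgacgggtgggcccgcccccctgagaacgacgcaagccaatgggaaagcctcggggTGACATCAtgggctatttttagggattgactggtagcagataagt
Maff, at the second of its 3 starts, chr15:79347270-79347519, plus strand: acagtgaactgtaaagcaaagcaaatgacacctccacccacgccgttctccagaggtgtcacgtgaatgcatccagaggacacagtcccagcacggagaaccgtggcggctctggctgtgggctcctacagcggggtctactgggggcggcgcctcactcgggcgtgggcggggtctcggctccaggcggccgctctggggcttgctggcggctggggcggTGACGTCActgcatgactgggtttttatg
Fosb, chr7:19310046-19310295, minus strand: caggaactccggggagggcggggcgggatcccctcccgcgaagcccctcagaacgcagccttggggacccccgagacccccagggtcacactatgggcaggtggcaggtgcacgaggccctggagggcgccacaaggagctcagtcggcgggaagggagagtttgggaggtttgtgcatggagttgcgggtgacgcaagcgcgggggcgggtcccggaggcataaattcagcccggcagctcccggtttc

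The motifs were searched on both strands. Fos and Atf3 hold TGACGT, the CRE core (in Atf3 on the opposite strand), Jun holds TGACATCA, a match to TGACNTCA, and Maff holds the full CRE TGACGTCA, which contains TGACGT and matches TGACNTCA as well. Among 32851 promoters of the same length, TGACGT occurred in 6.47%, TGACNTCA in 7.49%, TGACGTCA in 1.55% and the AP-1 site TGACTCA in 4.46%. None of the member promoters held TGACTCA, and none of these 5 motifs, TTCNNNGAA included, was found in Fosb, Fosl2, Junb or Jund or at the first start of Maff. The third start of Maff, which is not printed, held TGACATCA, a match to TGACNTCA. TTCNNNGAA, the STAT palindrome, which 7.02% of promoters carried, occurred only in Batf3.

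Fasting raised Fos, Maff and Junb in AgRP neurons. Of 9 members tested, 3 were called higher and none lower, where 2.82% of all genes were called higher and 1.07% lower. Unadjusted, 5 of the 9 had p under 0.05, each of them higher, where 19.3% of all genes had one in either direction, and the median log2 fold change of the 9 was 0.57, against 0.02 for all genes.

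Fos, the founding partner of AP-1, was at 19.7, 11.9 and 20.3 CPM in the fed libraries, at 36.2, 53.8, 44.2 and 40.0 CPM in the fasted and at 28.4, 31.0, 25.7 and 31.0 CPM in the leptin libraries. Every fasted library was above every leptin library, and every leptin library above every fed one. The log2 fold change of fasted against fed was 1.35 (SE 0.196, adjusted p = 0.00315), which is 2.54-fold. Maff was at 5.14, 4.78 and 4.61 CPM in fed and at 9.61, 8.22, 8.75 and 7.53 CPM in fasted libraries, with no overlap, a log2 fold change of 0.82 (SE 0.117, adjusted p = 0.0028). Junb, a Jun protein that also restrains Jun, was at 183, 209.6 and 189.8 CPM in fed and at 277, 292, 321 and 255 CPM in fasted libraries, again without overlap (log2 fold change 0.57, SE 0.118, adjusted p = 0.0183). With library size alone as the scaling, Fos stayed called, whereas Junb (adjusted p = 0.134) and Maff (adjusted p = 0.0625) did not, and the Junb call was also lost without fasted replicate 3 (adjusted p = 0.0715), fed replicate 1 (0.0918) or fed replicate 4 (0.0866).

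Fosb, which encodes a Fos protein with a long-lived short form, was at 9.14, 7.86 and 16.2 CPM in fed and at 17.5, 16.4, 14.4 and 22.3 CPM in fasted libraries. The highest fed value, in replicate 4, overlapped the fasted range. The log2 fold change of 0.69 (SE 0.256) had an adjusted p of 0.164, but with the replicate number as a block, under which 4.4% of all genes were called higher, it was called (0.75, adjusted p = 0.00444), and likewise without replicate 4 of every state (0.91, adjusted p = 0.0138). Atf3 gave 0.75 (adjusted p = 0.168), Fosl2 0.24 (0.348), Jund 0.24 (0.461), Fosl1 0.22 (0.357) and Jun -0.07 (0.818) on the log2 scale, each with overlapping libraries. The summed level of the 10 messages was 613 ± 42.0 CPM (SD, n = 3) in fed, 795 ± 35 CPM (n = 4) in fasted and 856 ± 65.5 CPM (n = 4) in leptin libraries, most of it from Jund, Junb and Fosl2.

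**Figure D2:**
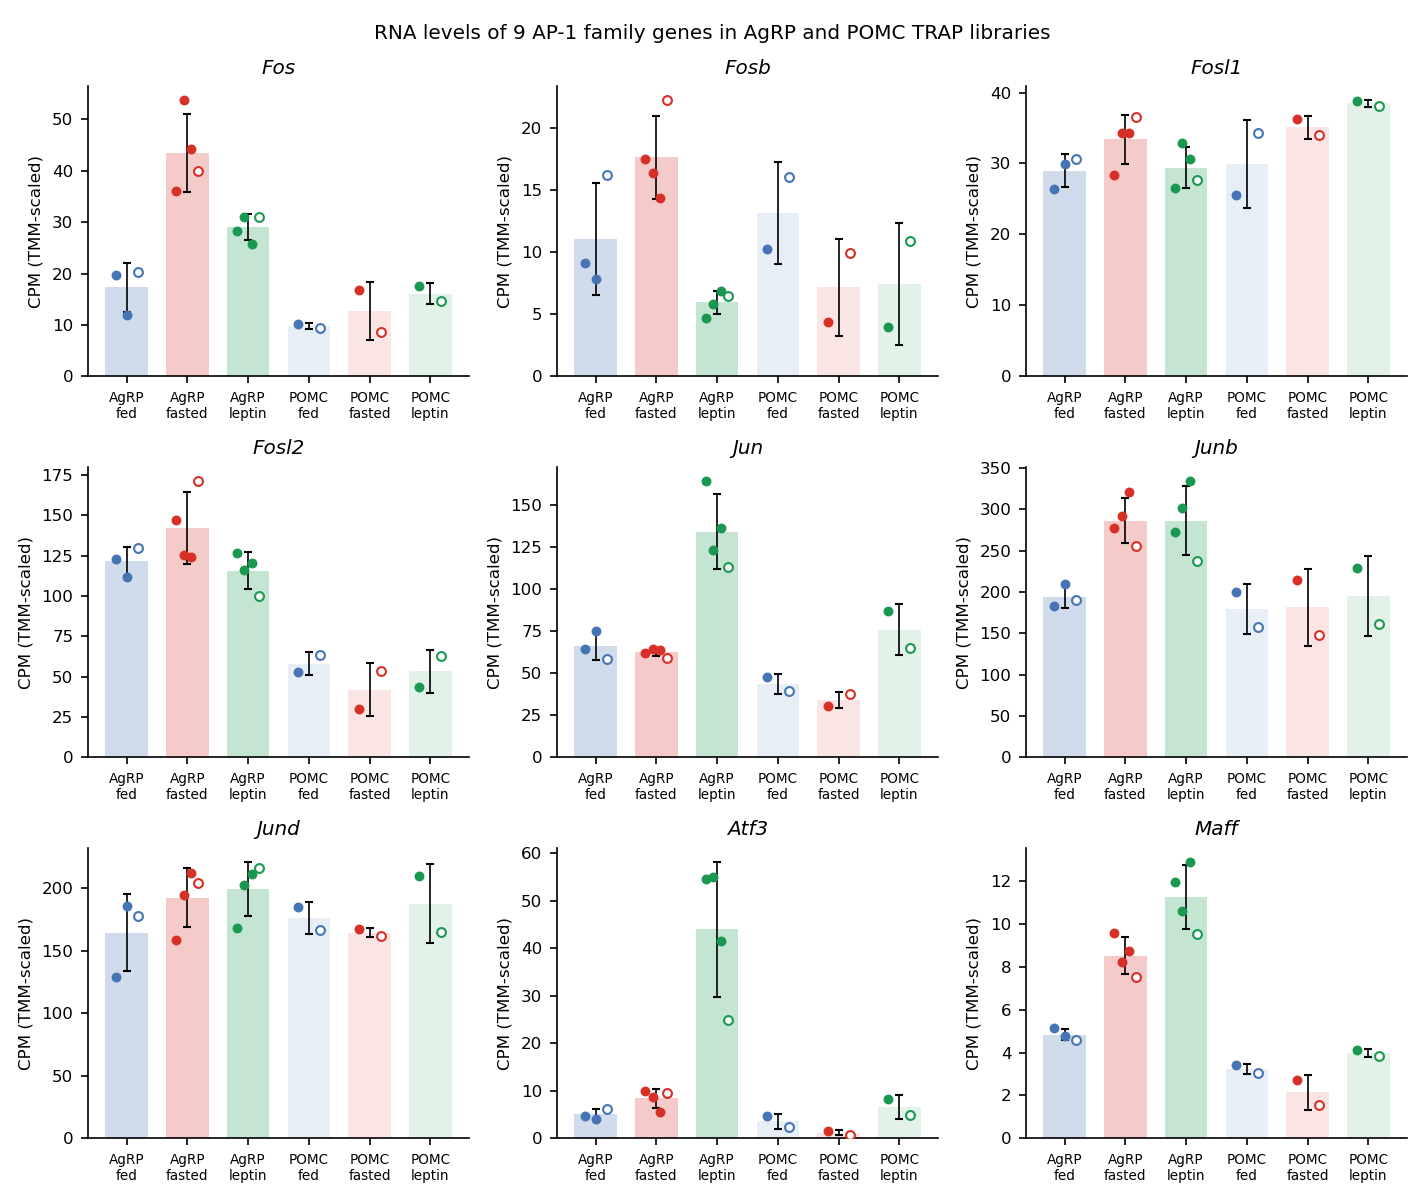
TMM-scaled CPM (y axis) of the 9 tested members by line and state, with bars for means, lines for SD, and points for libraries; open circles are AgRP replicate 4 and POMC replicate 2, the libraries rich in Slc1a2. Fos, Junb and Maff of fasted AgRP neurons lie above all fed libraries, and Jun (113 to 165 CPM) and Atf3 (24.9 to 55.0 CPM) of leptin-treated AgRP neurons lie above all others.

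Leptin given to fasted mice raised Atf3 and Jun and lowered Fosb in AgRP neurons. Of 9 members, 2 were called higher and 1 lower, where 1.19% of all genes were called higher and 0.634% lower. The same fasted libraries serve in this comparison and in fasted against fed, so values are given side by side only.

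Atf3, a stress-induced factor that often represses, was at 9.94, 8.67, 5.53 and 9.55 CPM in fasted and at 54.5, 55.0, 41.6 and 24.9 CPM in leptin libraries. The lowest leptin value, in replicate 4, was still above every fasted and fed library, the fed ones being at 4.76, 4.17 and 6.21 CPM. The log2 fold change was 2.38 (SE 0.264, adjusted p = 0.000756), which is 5.20-fold, and 2.65 (adjusted p = 0.000238) without replicate 4 of every state. Jun was at 62.3, 64.2, 63.8 and 59.4 CPM in fasted and at 165, 123, 137 and 113 CPM in leptin libraries. Its levels in fed libraries (64.3, 75.4 and 58.8 CPM) overlapped those in fasted ones, and leptin raised it 2.15-fold (log2 fold change 1.10, SE 0.11, adjusted p = 0.000441).

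Fosb fell to 4.68, 5.83, 6.84 and 6.5 CPM, below every fasted and every fed library. It was 2.96-fold lower than in the fasted state (log2 fold change -1.56, SE 0.24, adjusted p = 0.00593). Fos was lower in all 4 leptin than in all 4 fasted libraries, with a log2 fold change of -0.59 (SE 0.175) whose adjusted p was 0.163, and 0.0111 with the replicate block, under which it was called, as were 1.1% of all genes in that direction. DESeq2 called it too (-0.58, adjusted p = 0.0455). Maff reached 12.0, 10.6, 12.9 and 9.52 CPM, overlapping the fasted range in replicate 4 (log2 fold change 0.40, adjusted p = 0.0922). With the replicate block its adjusted p was 0.009, but the log2 fold change of 0.40 stayed under the limit of 0.5. For Junb (log2 fold change -0.00, SE 0.108), Jund (0.05, SE 0.146), Fosl1 (-0.19, SE 0.108) and Fosl2 (-0.30, SE 0.117) the libraries of the states overlapped and the test was not passed. Over the 11 AgRP libraries Fosl2 ranged from 100.1 to 171 CPM, Jund from 129 to 216 CPM and Fosl1 from 26.3 to 36.6 CPM, and the lowest Fosl2 and highest Fosl2 values were both in replicate 4.

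Set against fed mice, leptin-treated fasted mice had 5 members called higher and none lower, where 3.73% of genes were called higher and 1.75% lower. Atf3 was 8.76-fold higher (log2 fold change 3.13, SE 0.308, adjusted p = 0.000417), Maff 2.34-fold (1.22, SE 0.118, adjusted p = 0.000399) and Jun 2.04-fold (1.03, SE 0.12, adjusted p = 0.000976). Fos (0.76, adjusted p = 0.0351) and Junb (0.57, adjusted p = 0.0152) were above fed levels in every library, but with library size alone neither was called (adjusted p = 0.0897 and 0.11). The Fos call was lost on leaving out any single fed or leptin library (adjusted p 0.0521 to 0.0885), and that of Junb without fed replicate 1 (0.0732), fed replicate 4 (0.0632) or leptin replicate 3, where the log2 fold change was 0.49. Fosb was below the fed range in every library, with a log2 fold change of -0.88 (adjusted p = 0.0563) that was called with the replicate block (-0.77, adjusted p = 0.00472), where 3.23% of all genes were called lower. It was also called with library size alone (-0.91, adjusted p = 0.0353), with DESeq2 (-0.89, adjusted p = 0.0095) and without fed replicate 3 (-1.07, adjusted p = 0.048).

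Without the replicate block, no cell type marker passed the test in fasted against fed or leptin against fasted in AgRP libraries. In leptin against fed Agrp alone did. Marker calls with the block, under which further members were called, are not given here. In fasted against fed mice the median log2 fold change was -0.62 over 5 tested microglial markers, -0.42 over 7 oligodendrocyte and -0.22 over 7 astrocyte markers, none called. The microglial markers summed to 24.2 to 43.2 CPM in fed and 18.4 to 40.8 CPM in fasted libraries, with Cx3cr1 the most abundant. In leptin against fasted mice the medians were 0.07, 0.11 and 0.10. POMC neuron (3), endothelial (5) and tanycyte and ependymal (5) markers had medians of -0.25, -0.16 and 0.19 with fasting and 0.00, 0.03 and -0.20 with leptin, none called. The part of these cells in the results was not tested. Without replicate 4, Fos (1.50), Maff (0.82), Junb (0.58) and Fosb (0.91) were called higher by fasting, and the leptin comparison kept Atf3, Jun and Fosb.

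**Figure D3:**
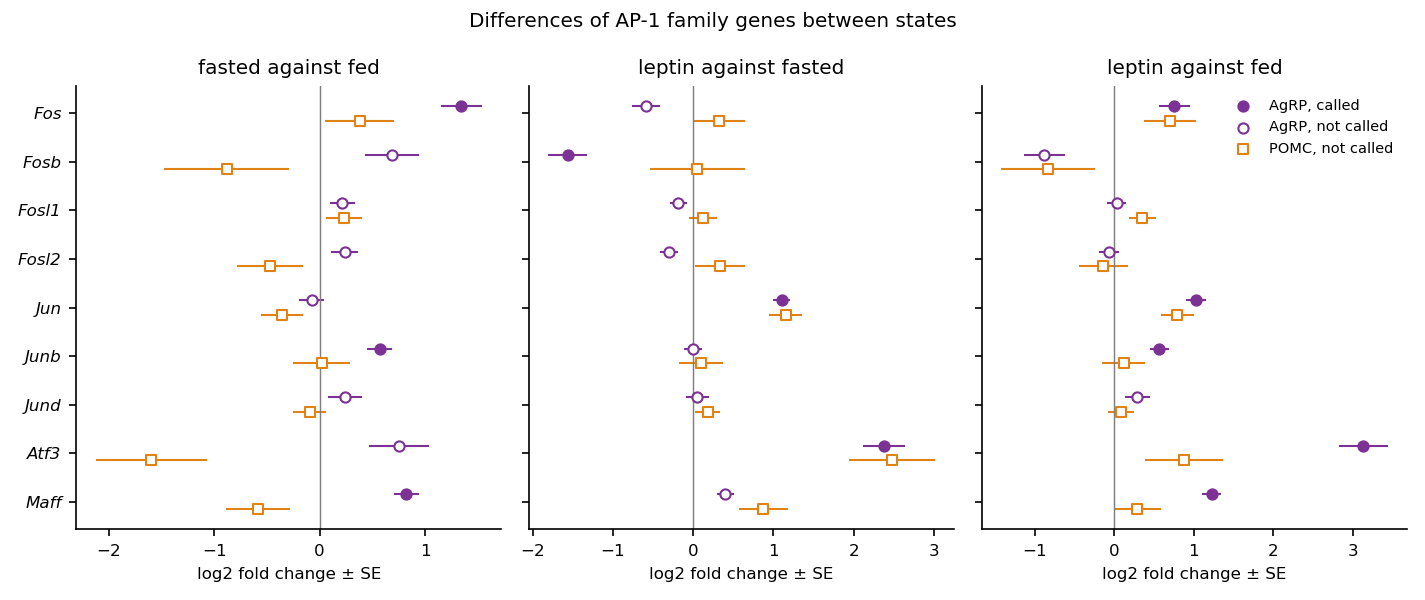
log2 fold change ± SE (x axis) of 9 members (rows) in 3 comparisons of states, for AgRP (purple circles) and POMC (orange squares) libraries; filled symbols passed the test. In AgRP neurons Fos, Maff and Junb passed it for fasting and Atf3, Jun and Fosb for leptin, while no POMC symbol is filled in this fit without a replicate block.

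In POMC neurons edgeR without a replicate block called no member in any of the 3 comparisons of states, nor any other gene (0% of 13412 genes in each comparison). With the replicate number as a block it called 0 genes higher and 3 lower in fasted against fed, 7 and 1 in leptin against fasted and 26 and 18 in leptin against fed, and among them were Atf3 (2.50, adjusted p = 0.00486) and Jun (1.14, adjusted p = 0.0365), both higher in leptin against fasted, where 0.0522% of all genes were. With 2 libraries a state, edgeR gave an unadjusted p under 0.05 for 282 genes in fasted against fed, 151 in leptin against fasted and 282 in leptin against fed, and DESeq2 called 3, 10 and 7 genes. Of the members, 1, 3 and 1 had an unadjusted p under 0.05 and DESeq2 called 0, 2 and 0. The genes that DESeq2 called were Atf3 and Jun. Atf3 was at 1.56 and 0.762 CPM in fasted and at 8.37 and 4.85 CPM in leptin libraries (log2 fold change 2.48, SE 0.536, unadjusted p = 0.00442, adjusted p = 1 with edgeR and 0.0182 with DESeq2). Jun was at 30.6 and 37.5 CPM in fasted and at 86.8 and 65.3 CPM in leptin libraries (1.15, SE 0.204, unadjusted p = 0.00171, adjusted p = 1 and 0.0135). Both leptin libraries lay above both fasted ones for each gene, and also for Maff (0.88, SE 0.304, unadjusted p = 0.0308).

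In fasted against fed POMC libraries the values of several members lay lower, without passing the test. Atf3 was below its fed values of 4.73 and 2.41 CPM in both fasted libraries (log2 fold change -1.60, SE 0.529, unadjusted p = 0.0259), and Maff was at 3.41 and 3.07 CPM in fed and at 2.72 and 1.56 CPM in fasted libraries (-0.58, unadjusted p = 0.107). Fos was at 10.2 and 9.42 CPM in fed, 16.8 and 8.67 CPM in fasted and 17.6 and 14.7 CPM in leptin libraries, so the fed and fasted ranges overlapped. Fosb was at 10.3 and 16.1 CPM in fed, 4.40 and 9.94 CPM in fasted and 3.95 and 10.9 CPM in leptin libraries, with replicate 2 the higher of each pair. Junb ranged from 148 to 229 CPM, Jund from 162 to 210.2 CPM, Fosl2 from 30.1 to 63.3 CPM and Fosl1 from 25.5 to 38.8 CPM over the 6 POMC libraries. The difference between the lines was tested directly. For the fasting effect edgeR without a block called 0.164% of genes, no member among them. An unadjusted p under 0.05 was found for 5 of 9 members and 8.96% of all genes. DESeq2 called 125 of 13435 genes higher and 41 lower, and 2 of these genes were members. These were Maff (difference of log2 fold changes 1.40, SE 0.274, adjusted p = 0.0548 with edgeR and 0.00163 with DESeq2) and Atf3 (2.34, SE 0.581, adjusted p = 0.127 and 0.00643), both higher in AgRP. Fosb gave 1.55 (SE 0.585, adjusted p = 0.406), and 2.13 (adjusted p = 0.0452) without the libraries that stood apart, which leaves 1 POMC library a state. Maff passed the test without POMC fasted replicate 1 (1.87, adjusted p = 0.0457). With the replicate number within each line as a block, 6.22% of all genes and 6 of 9 members were called, each with the higher fasting effect in AgRP. These were Maff (1.43, adjusted p = 0.00128), Fosb (1.68, 0.00201), Junb (0.53, 0.00466), Atf3 (2.27, 0.0148), Fosl2 (0.77, 0.0175) and Fos (0.94, 0.0433), the numbers in parentheses being the difference of log2 fold changes and the adjusted p. For the leptin effect 0.0819% of genes and no member were called without the block. An unadjusted p under 0.05 was found for 3 of 9 members and 2.9% of all genes. DESeq2 called 26 genes higher and 13 lower, no member among them. With the block 0.759% of genes were called, and of the members Fosb alone (-1.56, adjusted p = 0.0176). Without the block the differences were -0.10 (SE 0.541) for Atf3 and -0.05 (SE 0.223) for Jun, and -1.62 (SE 0.572, adjusted p = 1) for Fosb.

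Between the lines in fed mice, edgeR called 3.21% of genes. Of the members it called 1, Fosl2, a Fos relative without an activation domain. It was at 123, 112 and 129 CPM in AgRP and at 52.9 and 63.3 CPM in POMC libraries (log2 fold change 1.06, SE 0.225, adjusted p = 0.0146, 2.09-fold). The call was lost without POMC fed replicate 1 or replicate 2 (adjusted p = 0.23 and 0.0671). Fos (0.82, adjusted p = 0.139), Jun (0.60, adjusted p = 0.0723) and Maff (0.58, adjusted p = 0.156) were higher in every AgRP than in every POMC library, without a call by edgeR. DESeq2 called Jun (0.61, adjusted p = 0.027), where it called 323 genes higher and 267 lower. The mouse line and the cell type cannot be told apart.

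Genes that work with the family were followed as fixed lists. Of 16 tested of 23 other basic leucine zipper partners, 5 rose with fasting in AgRP neurons and none fell, where 2.82% of all genes were called higher, with a median log2 fold change of 0.26 against 0.02 for all genes. For the lists that follow, the same share of all genes is 2.82% with fasting, 1.19% in leptin against fasted and 3.73% in leptin against fed. Nfil3, a circadian and cytokine-induced repressor, stood at 12.6 ± 2.14 CPM (SD, n = 3) in fed, 37.4 ± 3.07 CPM (n = 4) in fasted and 28.3 ± 4.03 CPM (n = 4) in leptin libraries (fasted against fed 1.58, adjusted p = 0.000594). Atf4, the effector of the integrated stress response, went from 49.2 ± 2.98 to 73.7 ± 5.43 CPM with fasting and stood at 74.3 ± 10.3 CPM after leptin (0.59, adjusted p = 0.0082). Cebpa (0.81, adjusted p = 0.0163), Creb3l2 (0.71, adjusted p = 0.0165) and Creb3l1 (0.51, adjusted p = 0.0451) were the others. Leptin against fasted called none of the 16, with 4 at an unadjusted p under 0.05 (9.13% of all genes), and leptin against fed called 3 higher.

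Of 10 tested Maf and CNC factors none was called with fasting or with leptin, 2 and 0 having an unadjusted p under 0.05 (19.3% and 9.13% of all genes), and 1 was called higher in leptin against fed. Of 25 MAP kinase and SRF genes, 2 rose with fasting. They were Map2k3, a p38 kinase kinase (7.52 ± 1.29 CPM in fed and 13.5 ± 2.15 CPM in fasted, log2 fold change 0.85, adjusted p = 0.0142), and Rps6ka2 (0.58, adjusted p = 0.0228). Map3k1, which acts upstream of the Jun kinases, rose with leptin from 16.3 ± 2.08 to 25.5 ± 2.81 CPM (0.65, adjusted p = 0.0134). Leptin against fed called 2 of the 25 higher.

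Of 18 textbook AP-1 target genes, 11 were tested. Nts, the neuropeptide neurotensin, rose with fasting from 6.35 ± 0.383 to 34 ± 13.1 CPM (log2 fold change 2.42, adjusted p = 0.00462), and Pdyn, the dynorphin precursor, from 67.7 ± 4.44 to 107 ± 13.5 CPM (0.67, adjusted p = 0.00427). Timp1, a metalloproteinase inhibitor, rose with leptin from 1.45 ± 0.717 to 9.73 ± 2.55 CPM (2.76, adjusted p = 0.00158), and Hmox1, haem oxygenase 1, from 2.99 ± 0.429 to 5.62 ± 0.945 CPM (0.91, adjusted p = 0.00949). Leptin against fed called 5 of the 11 higher, and none of these lists had a gene called lower in the 3 AgRP comparisons. In the POMC libraries edgeR without the block called none of their genes. The unadjusted p was under 0.05 for 1, 1, 1 and 2 genes of the 4 lists in fasted against fed (2.1% of all genes). It was so for 0, 0, 1 and 1 in leptin against fasted (1.13%) and 0, 0, 3 and 1 in leptin against fed (2.1%).

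Across the 11 AgRP libraries, the genes whose log2 CPM followed each of Fos, Jun and Junb most closely were listed among 13400 others, as a description, since the libraries share the 3 states. For Fos they were Scrt2 (Pearson r = 0.963), Pla2g4e (0.935), Plk2 (0.932), Nfkbiz (0.931) and Mtmr2 (0.924). For Jun they were Fam179a (0.989), Sowahc (0.987), Rdh10 (0.978), Mcm4 (0.975) and Steap4 (0.972). For Junb they were Atf4 (0.992), Hspa5 (0.988), Pdia3 (0.986), Hyou1 (0.983) and Ddost (0.982), of which Hspa5, Pdia3 and Hyou1 encode chaperones or folding enzymes of the endoplasmic reticulum. Within the family, Atf3 followed Jun (0.908), Junb followed Maff (0.857) and Fosb ran opposite to Jun (-0.878).

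Chromatin near the members was measured in 6 ATAC libraries of 8263234 to 17190963 counts in peaks. Of the 203 peaks within 100 kb of a start site, 179 passed the 1 CPM filter of 102237 peaks tested genome-wide, and 11 of the 203 lie within reach of both Atf3 and Batf3, whose starts are 84.9 kb apart, and were given to the nearer gene. With fasting 27 of the 179 peaks opened (15.1%) and 5 closed (2.79%), where 18.1% of all peaks opened and 8.88% closed. With leptin against fasted 1 opened and 1 closed (0.559% each), where 2.41% and 0.669% of all peaks did. With leptin against fed 32 opened (17.9%) and 20 closed (11.2%), where 23.3% and 13.4% did. These shares were not tested against the whole table. Leaving out 1 library gave 9.5% to 15.6% opened and 1.67% to 2.78% closed with fasting. For leptin against fasted it gave 0% to 0.556% opened and 0% to 2.22% closed. For leptin against fed it gave 11.1% to 18.3% opened and 4.47% to 16.8% closed. The 9.5% and the 16.8% arose without fed replicate 1, the shallowest of the 6 libraries (8263234 counts, against 14324992 in fed replicate 2). Within 50 kb the closed share in leptin against fasted was 0.962%.

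With fasting, Jun had 5 of 14 tested peaks opened, Fosl2 4 of 11, Atf3 4 of 12, Maff 4 of 22, Fosl1 3 of 19, Fos 2 of 16, Fosb 2 of 22, Junb 2 of 29, Batf3 1 of 12 and Jund 0 of 22. The differences between members were not tested. A peak near a member may serve another gene. At the start sites themselves, where 9 of the 10 members had a tested peak, none was called with fasting (3 with an unadjusted p under 0.05, where 40% of all peaks had one) or with leptin against fasted (0, where 13.9% did). The Jun start was at 165 and 153 CPM in fed, 140 and 118 CPM in fasted and 127 and 129 CPM in leptin libraries, and the Fos start at 35.9 and 37.4, 34.8 and 27.8, and 31.0 and 28.2 CPM. In leptin against fed, the start sites of Atf3 (19.4 and 21.5 CPM in fed, 36.7 and 28.0 CPM in leptin, log2 fold change 0.64, adjusted p = 0.0218) and Fosl1 (0.84, adjusted p = 0.0436) were called more open, in 7 of 10 and 6 of 10 alternative fits (adjusted p up to 0.203 and 0.253). These 2 of 9 stand beside the 23.3% of all peaks called more open in that comparison.

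**Figure D4:**
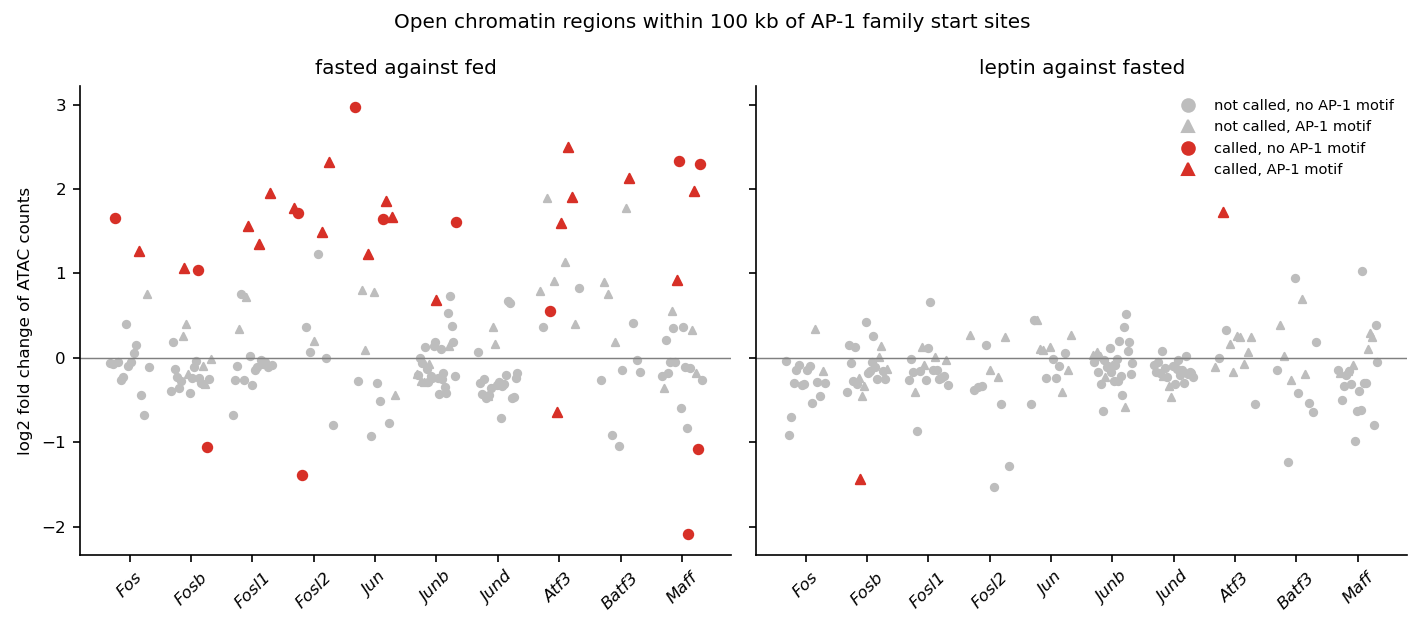
log2 fold change of ATAC counts (y axis) of the 179 tested peaks within 100 kb of the start sites, by member and in order of position within each member; red symbols passed the test, and triangles mark peaks with TGACTCA anywhere in them. With fasting 27 peaks opened and 5 closed, and with leptin against fasted 1 near Atf3 opened and 1 near Fosb closed.

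The regions that changed most are distal. The peaks below are shown because their own counts changed between states and they hold an AP-1 site. The messages of Atf3 and Fosb passed the test in a comparison of AgRP states and that of Fosl2 in none. They are plus-strand mm10 sequence, up to 300 bases of the centre of each peak, and capitals mark the AP-1 site, the CRE core and the STAT palindrome on either strand.

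Atf3, centred -86052 bases from its start, intergenic, chr1:191269236-191269535: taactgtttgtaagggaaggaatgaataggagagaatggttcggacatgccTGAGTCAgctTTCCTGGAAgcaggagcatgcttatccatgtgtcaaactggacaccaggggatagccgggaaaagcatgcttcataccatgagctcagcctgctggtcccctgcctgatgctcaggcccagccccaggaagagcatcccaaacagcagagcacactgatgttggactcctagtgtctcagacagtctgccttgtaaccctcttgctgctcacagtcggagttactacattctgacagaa
Atf3, centred -10552 bases from its start, annotated as intron, chr1:191193742-191194028: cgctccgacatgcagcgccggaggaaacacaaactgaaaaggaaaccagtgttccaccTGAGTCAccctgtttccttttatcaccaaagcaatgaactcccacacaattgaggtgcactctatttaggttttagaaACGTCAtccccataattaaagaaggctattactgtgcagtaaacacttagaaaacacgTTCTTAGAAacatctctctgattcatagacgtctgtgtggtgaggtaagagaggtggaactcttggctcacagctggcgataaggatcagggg
Fosb, centred -32148 bases from its start, intergenic, chr7:19342048-19342338: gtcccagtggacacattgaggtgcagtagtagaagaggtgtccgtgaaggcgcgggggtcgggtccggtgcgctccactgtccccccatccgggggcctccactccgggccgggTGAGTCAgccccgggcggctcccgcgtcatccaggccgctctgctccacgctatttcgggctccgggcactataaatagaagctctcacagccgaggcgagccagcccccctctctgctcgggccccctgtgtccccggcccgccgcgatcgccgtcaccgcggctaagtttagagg
Fosl2, centred 64067 bases from its start, intergenic, chr5:32200413-32200665: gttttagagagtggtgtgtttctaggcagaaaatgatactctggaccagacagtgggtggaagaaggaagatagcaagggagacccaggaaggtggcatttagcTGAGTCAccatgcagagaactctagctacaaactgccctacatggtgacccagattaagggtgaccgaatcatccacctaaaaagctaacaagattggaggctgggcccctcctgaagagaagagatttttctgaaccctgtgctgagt

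The gene start nearest to the first is that of Nenf (48809 bases away), to the third that of Ercc1 (2585 bases) and to the fourth that of Plb1 (32169 bases). Negative distances are upstream. Of 102204 tested peaks, 25.1% held TGACTCA in the central 300 bases, 4.85% held TGACGT and 12.4% held TTCNNNGAA. The first of these 4 peaks was the only one near a member to open with leptin against fasted. It was at 0.252 and 0.512 CPM in fed, 0.840 and 2.27 CPM in fasted and 5.07 and 5.32 CPM in leptin libraries, so that both leptin libraries lay above the rest (log2 fold change 1.73, SE 0.38, adjusted p = 0.0125 against fasted, and 3.62, adjusted p = 9.16e-05 against fed). The call against fasted held in 4 of 10 alternative fits, and not without fasted replicate 1 or either leptin library. The second opened with fasting, from 0.881 and 1.90 CPM to 6.66 and 10.5 CPM (2.50, SE 0.442, adjusted p = 0.000431), in 10 of 10 alternative fits, and was at 8.66 and 7.75 CPM after leptin.

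The Fosb peak was the only one to close with leptin against fasted. It was at 3.78 and 7.53 CPM in fed, 18.1 and 7.26 CPM in fasted and 5.42 and 4.02 CPM in leptin libraries, and its log2 fold change of -1.44 (SE 0.381, adjusted p = 0.0413) was called in 4 of 10 alternative fits. It was lost without fasted replicate 1, the higher of the pair (adjusted p = 0.732), and without either leptin library. The Fosl2 peak went from 0.629 and 0.658 CPM in fed to 3.56 and 2.97 CPM in fasted and 4.22 and 3.57 CPM in leptin libraries (leptin against fed 2.56, adjusted p = 0.000649). Near the members, the largest increase with fasting lay at -98477 bases from Jun, at 0.378 and 0.512 CPM in fed, 3.94 and 3.41 CPM in fasted and 2.18 and 2.77 CPM in leptin libraries (2.97, adjusted p = 0.000601), and held no TGACTCA. The largest decrease lay 46645 bases downstream of Maff in an intron of Tmem184b, from 5.54 and 5.63 CPM to 1.87 and 0.757 CPM (-2.09, adjusted p = 0.000946).

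The AP-1 site was more frequent in fasted-opened than in other peaks. Across the genome TGACTCA lay in the central 300 bases of 57.9% of 18511 fasted-opened peaks, 2.35% of 9068 fasted-closed peaks and 19.7% of peaks not called. Near the members it lay in 14 of 27 fasted-opened (51.9%), 1 of 5 fasted-closed (20%) and 23 of 147 other peaks (15.6%). In leptin against fed the shares were 56.7% of opened and 2.74% of closed peaks, and 59.4% (19 of 32) and 10% (2 of 20) near the members. In leptin against fasted they were 31.4% of 2462 opened and 10.1% of 684 closed peaks. The full CRE TGACGTCA was rare, in 0.764% of all tested peaks and 0.54% of fasted-opened ones. The searched window was 300 bases for every peak, reaching past the edges of shorter peaks, while the median peak length was 442 bases for fasted-opened and 513 bases for fasted-closed peaks. A match is a stretch of letters and was not measured as binding.

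**Figure D5:**
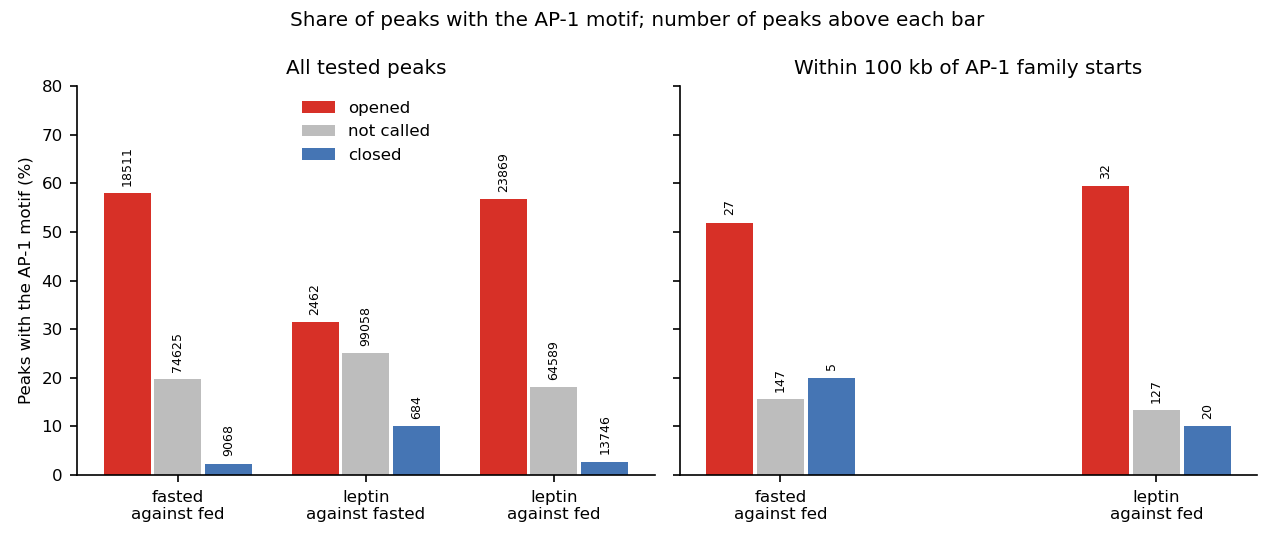
Share of peaks (y axis, percent) with TGACTCA in the central 300 bases, by whether the peak opened (red), was not called (grey) or closed (blue), for all tested peaks (left) and those within 100 kb of a member (right, where leptin against fasted has 1 peak each way and is not drawn); numbers of peaks stand above the bars. Fasted-opened peaks held the site in 57.9% genome-wide and 51.9% near the members.

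In fed, untreated mice, the sorted nuclei compared chromatin of GFP-positive AgRP nuclei with that of GFP-negative nuclei of the same pools (4 libraries of 8685497 to 11177208 counts). Of 137 peaks near the members 26 were more open in AgRP-positive nuclei (19%) and 16 less (11.7%), where 23.9% and 15.6% of 66560 peaks were. Leaving out 1 library at a time gave 10.9% to 16.8% and 7.3% to 15.3%, DESeq2 gave 11.7% more open and library size alone 5.84% less open. More open were 5 of 7 peaks of Atf3, 5 of 8 of Fosl2, 5 of 17 of Maff, 3 of 10 of Jun, 3 of 11 of Fos and 1 each of the other 5 members. Less open were 4 of 7 peaks of Batf3, 4 of 14 of Fosl1, 3 each of Jund and Junb and 1 each of Fos and Maff. The start of Maff was at 32.7 and 32.3 CPM in positive and 13.7 and 18.4 CPM in negative nuclei (log2 fold change 1.02, SE 0.176, adjusted p = 1.07e-07, 2.03-fold). The starts of Atf3 (0.58, adjusted p = 0.00683) and Fosl2 (0.53, adjusted p = 0.000455) were more open in AgRP nuclei as well, and that of Batf3 less so (-1.33, adjusted p = 0.00613). At the Fos start the values were 22.7 and 26.2 CPM in positive and 19.6 and 25.4 CPM in negative nuclei (0.12, adjusted p = 0.6). With library size alone as the scaling, the median of all peaks shifted to 0.16 on the log2 scale and 71.4% of called peaks were higher in AgRP nuclei, against 60.5% with TMM.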

How the data were processed

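RNA counts per gene were deposited by the authors as raw counts, made with HISAT2 and featureCounts on a GRCm38 annotation modified to reduce overlap, without strand. ATAC counts per merged peak were deposited as raw counts on mm10, after Bowtie2, MACS2 and bedtools, one table for the states and one for the sorted nuclei. Tool versions are not given in the sources used here. The authors' log2 CPM, fold change and CTCF files were not used.

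Features with a mean over 1 CPM were tested with edgeR 4.0.16 (R 4.3.3, limma 3.58.1), TMM and quasi-likelihood, adjusting p-values over all features of a fit. SE is the log2 fold change divided by the root of F. AgRP and POMC states were fitted per line, their differences in 1 fit over both lines, and sorted nuclei in a fit of their own. Alternatives were library size scaling, no filter, DESeq2 1.42.0, an older quasi-likelihood fit, an adjusted p under 0.01, a 50 kb reach, a 200 base motif window, the replicate block and leaving out each replicate. Fits without AgRP replicate 4 and POMC replicate 2 were added after the data were seen, as were the block within each line for the differences between lines and the motifs TGACNTCA, TGACGT and TTCNNNGAA. Replicate numbers were taken to pair the libraries. Residuals of same-numbered AgRP libraries correlated at 0.536 to 0.814 over 10 pairs (median 0.7). Differently numbered AgRP libraries correlated at -0.642 to 0.642 over 30 pairs (median -0.236), so the ranges overlapped. Same-numbered POMC libraries correlated at 0.733 to 0.77 over 6 pairs. With 2 numbers in each state, differently numbered POMC pairs are the mirror image of these (-0.77 to -0.733).

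The members and gene lists were chosen with earlier results of these data known. All members were given. From each list, genes called in AgRP fasted against fed or leptin against fasted were named, up to 6, and near the members start-site peaks and the largest called changes. The scripts were tested on simulated data, drawn with the same spread for every feature and without replicate pairs or libraries that stood apart. Sequences are from RefSeq (GRCm38.p6) and the mm10 genome. Depth was 25581041 to 54511107 counts in RNA and 8263234 to 17190963 in ATAC state libraries, and low messages such as Batf3 are the least precise. The summed level of the oligodendrocyte markers is not reported here.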

Additional observations from a re-analysis of the deposited data

How the results depend on the processing

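No called result changed direction in any alternative run. Members called: with library size alone, fasting called 1 (Fos). Leaving out 1 replicate at a time gave 2 to 3 for fasted against fed (4 without replicate 4 in every state), 3 to 3 for leptin against fasted, 3 to 5 for leptin against fed, 0 to 1 for AgRP against POMC in fed mice and 0 to 1 for the fasting difference between lines. Fos in leptin against fed was lost without any single fed or leptin library, and Junb without fed replicate 1, fed replicate 4 or leptin replicate 3. The count of 5 in leptin against fed arose without fed replicate 3, where Fos was lost and Fosb was called lower. DESeq2 added Fos in AgRP leptin against fasted, where it called 211 genes higher and 107 lower. It added Fosb in AgRP leptin against fed, where it called 556 and 312. In POMC leptin against fasted it called 2 members, among 9 genes higher and 1 lower. In AgRP against POMC it called 2 members, among 323 higher and 267 lower. For the fasting difference it called 2 members, among 125 higher and 41 lower. Where an arm was left with 1 library, that library was assumed to vary like the other groups. The cause was not tested.

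With the replicate block, POMC leptin against fasted called 2 members (Atf3 and Jun). With the block within each line, 6 members were called for the fasting difference and 1 for the leptin difference between lines (22 genes in all without it for fasting and 836 with it). The block added Fosb with fasting and in leptin against fed, and Fos in leptin against fasted, in AgRP libraries and changed no other member call there. Same-numbered ATAC libraries correlated at -0.00228 to 0.165 in the states, where the block gave 1.68% closed near the members in leptin against fasted, and at 0.0988 in the sorted pools.

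Near the members, leaving out 1 library gave 9.5% to 15.6% opened and 1.67% to 2.78% closed by fasting, 0% to 0.556% and 0% to 2.22% in leptin against fasted, 11.1% to 18.3% and 4.47% to 16.8% in leptin against fed, and 10.9% to 16.8% and 7.3% to 15.3% in sorted nuclei. Closed by fasting was 1.12% at an adjusted p under 0.01 and 1.68% with library size alone or DESeq2. In leptin against fasted, opened was 0% at 0.01, within 50 kb, with DESeq2 and with the older fit, and closed was 0% at 0.01, with DESeq2 and with the older fit, and 0.962% within 50 kb. In leptin against fed, closed was 5.03% at 0.01. In sorted nuclei, closed was 5.84% with library size alone and opened 11.7% with DESeq2. In the central 200 bases, 49.8% of the peaks that fasting opened held TGACTCA, against 1.38% of those it closed and 0% of those it closed near the members, the window being shorter.

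Across all genes, fasting called 378 higher and 143 lower (72.6% higher), 148 and 90 with library size alone (62.2%), 590 and 340 with the block and 404 and 305 without replicate 4 (57%). Leptin against fed called 500 and 235, and 194 and 135 with library size alone. In AgRP against POMC 52.9% of calls were higher, and 63.1% with library size alone.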
